A study of Mus musculus with 23 samples.

Results

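Acyl-CoA thioesterases split acyl-CoA, the activated form in which fatty acids are oxidised or built into lipids, into a free acid and coenzyme A. The 9 genes Acot1, Acot2, Acot3, Acot4, Acot7, Acot8, Acot9, Acot12 and Acot13 were chosen by name as the cytosolic, mitochondrial and peroxisomal enzymes of this kind. Of these, 8 had a probe set of their own among the 18820 genes measured, while Acot8 was covered only by probe sets that it shares with Snx21. A single probe set each stood for the 8 genes, so no choice between probe sets was needed. Type I enzymes (Acot1 to Acot6 in mice) have the α/β-hydrolase fold and are encoded side by side on chromosome 12, whereas the other members have the hotdog fold. In liver, fasting and PPARα agonists are known to induce several type I genes, so that the family is often read as part of the PPARα programme of fatty acid handling.

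Gene expression was measured on Affymetrix arrays in colon scrapings of 23 male mice, aged 7 to 9 weeks. Wild type (WT) mice of strain 129S1/SvImJ received a control diet (n = 5) or a heme diet (n = 6). PPARα knockout (KO) mice, 129S4/SvJae-Pparatm1Gonz/J, received the same diets (n = 6 each). All 4 groups ate for 14 days a Westernized diet with 40% of energy as fat, mostly palm and corn oil, and 30 µmol calcium per g, to which the heme groups had 0.5 µmol heme per g added. The receptor gene is disrupted in the whole animal. Genotype and substrain differ together and cannot be told apart. Ppara itself was lower in every KO mouse than in any WT mouse of the same diet, with a signal of 240.0 to 378 against 444 to 560.2 on the control diet. The position of its probes relative to the disrupted part was not known. All 12 epithelial markers examined, among them Epcam and Vil1, had a signal above 20, and their summed signal lay between 44174 and 49494 in every mouse. The smooth muscle markers measured numbered 13. Heme lowered 12 (WT) and 1 (KO) of them by the call defined below, beside 8.29% and 9.20% of all genes. In KO mice too, 0 of the 13 log2 differences lay above 0, and their median was -0.56 (-1.16 in WT). The 2 responses differed by a call in 0 markers. On the control diet, 12 markers had an unadjusted p under 0.05 from limma for KO against WT, and 0 were called, against 5.74% and 0.0531% of all genes. The median of those log2 differences was -0.65. The summed signal of these markers went from 6653 to 19255 in WT control mice to 3822 to 5905 in WT heme mice (3635 to 9442 and 3474 to 6005 in KO mice). In bulk tissue fewer cells of a type and less RNA per cell cannot be told apart.

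Heme raised 5 of the 8 genes in WT mice and the same 5 in KO mice, namely Acot1, Acot2, Acot4, Acot7 and Acot12, and lowered none. These are called genes, with a Benjamini-Hochberg adjusted p under 0.01 from limma and a mean signal above 20 in a group compared, and 7 of the 8 genes passed the limit on signal. Over all 18820 genes 9.60% were called higher on heme in WT, 9.23% in KO and 6.69% in both. The median log2 difference between heme and control was 0.84 over the 8 genes in WT and 0.78 in KO mice, against -0.01 in each genotype over all genes. In 6 of the 8 genes in WT mice and in 5 in KO mice, every heme-fed mouse lay above every control mouse of its genotype, where 8.21% and 7.30% of all genes did so. No member was called between the genotypes on either diet.

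**Figure D1:**
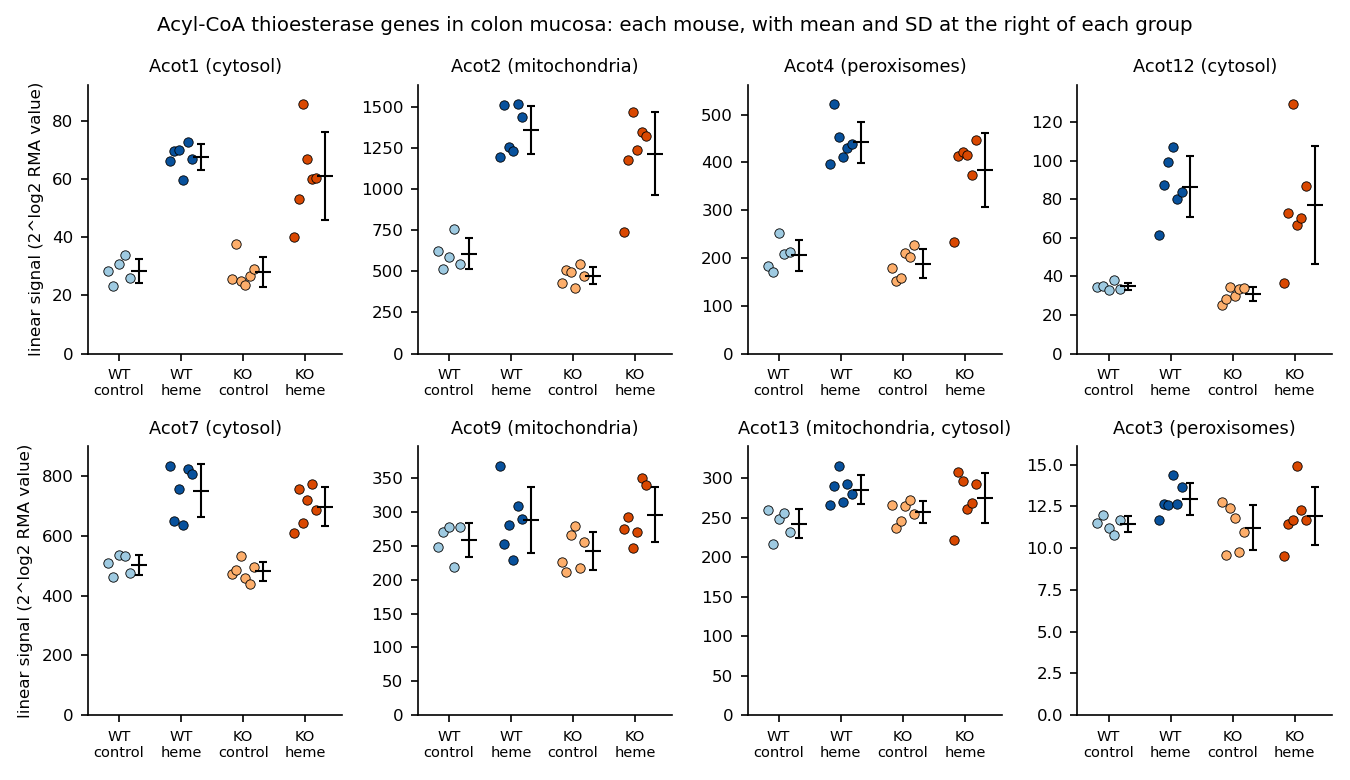
Linear signal (vertical axes, from 0) of the 8 acyl-CoA thioesterase genes in each of the 23 mice by genotype and diet, with the group mean and SD as a bar beside the points. In the upper row and in Acot7 the heme-fed mice of each genotype lie above their control mice, while in Acot9 and Acot3 the diets overlap. A single heme-fed KO mouse is the lowest of its group in 7 of the 8 panels.

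The 250 bases before the annotated start are shown for the 4 genes that changed most on heme and for Acot3, a neighbour of Acot4. Acot3 lay under the signal limit in every group, on heme too, so that none of its differences could be called. Signals this low bear little on whether it responded. Its letters therefore cannot stand for a gene that did not respond to heme. The sequences are from RefSeq (GRCm38.p6, plus strand) and lie at chr12:83987611-83987860, chr12:84009252-84009501, chr12:84038129-84038378, chr12:84051894-84052143 and chr13:91741271-91741520, in the order printed. Capitals mark AGGTCA, the half-site of nuclear receptors such as PPARα, CCAAT and GGGCGG, each on either strand.
Acot2: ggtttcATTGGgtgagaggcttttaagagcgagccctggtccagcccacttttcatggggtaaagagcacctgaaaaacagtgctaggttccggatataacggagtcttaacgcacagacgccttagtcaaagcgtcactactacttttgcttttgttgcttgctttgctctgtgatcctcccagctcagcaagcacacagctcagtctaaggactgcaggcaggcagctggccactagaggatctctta
Acot1: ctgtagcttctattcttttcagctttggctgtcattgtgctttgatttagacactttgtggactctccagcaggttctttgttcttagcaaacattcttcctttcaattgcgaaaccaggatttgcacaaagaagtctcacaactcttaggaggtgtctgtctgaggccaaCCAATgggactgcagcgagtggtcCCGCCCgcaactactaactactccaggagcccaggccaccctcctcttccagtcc
Acot4: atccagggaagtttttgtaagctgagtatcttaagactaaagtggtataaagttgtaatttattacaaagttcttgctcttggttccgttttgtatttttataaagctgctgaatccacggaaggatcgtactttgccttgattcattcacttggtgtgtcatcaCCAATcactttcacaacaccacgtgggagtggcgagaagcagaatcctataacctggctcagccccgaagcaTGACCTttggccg
Acot3: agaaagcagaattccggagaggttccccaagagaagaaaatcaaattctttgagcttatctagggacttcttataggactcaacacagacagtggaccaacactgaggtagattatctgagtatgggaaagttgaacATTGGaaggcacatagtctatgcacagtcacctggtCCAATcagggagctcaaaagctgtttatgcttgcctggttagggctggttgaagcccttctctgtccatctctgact
Acot12: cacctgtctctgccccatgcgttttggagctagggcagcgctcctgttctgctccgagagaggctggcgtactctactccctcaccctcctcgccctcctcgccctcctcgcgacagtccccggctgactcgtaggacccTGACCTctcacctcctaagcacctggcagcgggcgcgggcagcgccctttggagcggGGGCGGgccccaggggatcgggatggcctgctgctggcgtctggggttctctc

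A promoter window of 300 bases, with 50 bases after the start, was at hand for 8 of the 9 genes (not for Acot13). AGGTCA was found in the windows of 3 genes, at -13 in Acot4, at -110 in Acot12 and after the start in Acot3, and in 16.3% of all 32851 windows. The full direct repeat of AGGTCA with 1 free base between the copies, which the PPARα and RXR pair is known to bind, was in no member window and in 0.0396% of all windows. CCAAT was in the windows of 6 genes (37.4% of all windows), at -79 in Acot1, -85 in Acot4 and -244 in Acot2 among them, and GGGCGG in those of 5 (35.7%), at -55 in Acot1 and -53 in Acot12 among them. No AGGTCA was in the windows of the called genes Acot1, Acot2 and Acot7. The matches are a description of letters in these windows, not of bound sites.

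Acot1, which encodes a cytosolic enzyme for long-chain acyl-CoA, had a linear signal of 28.3, 23.4, 31.0, 33.8 and 25.9 in the 5 WT control mice. The lowest, median and highest signal was 60.0, 68.3 and 72.9 in WT heme mice, 23.6, 26.2 and 37.9 in KO control mice and 40.2, 60.3 and 85.8 in KO heme mice. All heme-fed mice of either genotype thus lay above all control mice. The signal was 2.39-fold higher on heme in WT mice (log2 difference 1.26, SE 0.141, n = 6 and 5, adjusted p = 1.04e-06 from limma) and 2.16-fold higher in KO mice (1.11, SE 0.134, n = 6 and 6, adjusted p = 2.50e-06). Mice within a group were spread most in the KO heme group, at 61.1 ± 15.1 (SD, n = 6) against 67.7 ± 4.46 (SD, n = 6) in WT heme mice.

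Acot12, a cytosolic enzyme best known for acetyl-CoA, had signals of 34.7, 35.0, 32.9, 38.1 and 33.5 in WT control mice. It reached 61.6, 85.6 and 107 (lowest, median and highest) in WT heme mice and went from 24.9, 31.7 and 34.7 in KO control to 36.5, 71.7 and 129 in KO heme mice. In KO mice the lowest heme-fed mouse stood just above the highest control mouse, whereas in WT mice the diets were well apart. The log2 difference was 1.29 in WT (SE 0.197, adjusted p = 3.67e-05 from limma) and 1.23 in KO mice (SE 0.188, adjusted p = 3.52e-05), which was the largest change of the members in WT mice.

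Acot7, a cytosolic enzyme for long-chain acyl-CoA that is abundant in brain, changed less. Its signals were 509, 464, 538, 534 and 475 in WT control mice and 637, 783 and 835 (lowest, median and highest) in WT heme mice. In KO mice they were 439.8, 479.9 and 534 on the control and 611, 703 and 774 on the heme diet, again without overlap of the diets. Heme raised Acot7 1.49-fold in WT (log2 difference 0.57, SE 0.0780, adjusted p = 1.11e-05 from limma) and 1.45-fold in KO mice (0.53, SE 0.0744, adjusted p = 1.31e-05).

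Among the mitochondrial enzymes, Acot2, the long-chain thioesterase of the matrix, changed and Acot9 and Acot13 did not pass the test. Acot2 had signals of 623, 516, 584, 757 and 546 in WT control mice and 1193, 1347 and 1514 (lowest, median and highest) in WT heme mice. KO control mice had 399, 485 and 543 and KO heme mice 738, 1278 and 1469, so that the diets did not overlap in either genotype. The log2 difference was 1.17 in WT (SE 0.134, adjusted p = 1.39e-06 from limma) and 1.33 in KO mice (SE 0.128, adjusted p = 9.98e-08), the latter being the largest change of the members in KO mice. The type I genes are close paralogs, and how far the probe set of one reads the transcript of another is not known here.

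Acot13, a hotdog-fold enzyme found at mitochondria and in the cytosol, had signals of 259.9, 217, 249, 255 and 231 in WT control mice and 266 to 315 in WT heme mice. The WT diets did not overlap, yet the log2 difference of 0.24 (SE 0.0719) missed the threshold (adjusted p = 0.0159 from limma). It was called in WT mice with array weights and without KO heme replicate 1, which enters through the shared variance. In KO mice Acot13 ranged from 237 to 273 on the control and from 221 to 307 on the heme diet, with a log2 difference of 0.09 (95% CI -0.05 to 0.23). Acot9, a mitochondrial enzyme with a broad range of substrates, overlapped between diets in both genotypes, with log2 differences of 0.15 in WT (95% CI -0.08 to 0.37) and 0.28 in KO mice (95% CI 0.07 to 0.50, adjusted p = 0.0459 from limma). The range of Acot9 in WT heme mice, 229 to 368, took in nearly all of that in WT control mice, 219 to 278.

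Of the peroxisomal enzymes, Acot4, which is known to act on succinyl-CoA, was raised. Its signals were 184, 169.7, 253, 208 and 212 in WT control mice and 397, 434 and 521 (lowest, median and highest) in WT heme mice. They were 151, 189.9 and 228 in KO control and 233, 414 and 447 in KO heme mice, where the lowest heme-fed mouse came within a few units of the highest control mouse. The log2 difference was 1.11 in WT (SE 0.141, adjusted p = 4.65e-06 from limma) and 1.02 in KO mice (SE 0.134, adjusted p = 7.00e-06). With the smooth muscle marker level as a covariate, the value of Acot4 in WT mice was 0.74, over 1.5 times lower, but still called, as were the other 4 genes in both genotypes.

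Acot3, a peroxisomal enzyme for long-chain acyl-CoA, gave 11.4 ± 0.477 (SD, n = 5) as its mean signal in the WT control group and never exceeded 14.9 in any mouse. It lay under the signal limit of 20 in all 4 groups and could not be called, with log2 differences of 0.18 in WT and 0.08 in KO mice. Signals this low bear little on whether the gene responded.

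Acot8, a peroxisomal enzyme with a broad range that includes bile acid-CoA, could not be separated from Snx21, a sorting nexin gene, on either of the probe sets annotated to both. On probe set 10489553 the signal ranged over 241 to 317 in WT control and 285 to 358 in WT heme mice, and over 256 to 299.8 and 283 to 367 in KO mice, overlapping in both genotypes. In a fit of all 35556 probe sets, where 6.15% were called higher in WT and 6.16% in KO, it had log2 differences of 0.30 in WT (adjusted p = 0.00563 from limma, called) and 0.21 in KO mice (adjusted p = 0.0367, not called). The difference between these responses was -0.09 (95% CI -0.31 to 0.12) and was not called. On probe set 10478580 the log2 differences were -0.01 in WT and 0.03 in KO mice. The pair of probe sets thus disagreed, and no level of Acot8 alone was had. The WT call also lay near the threshold of 0.01. It was lost without any 1 of WT control replicates 1, 2, 4 and 5 and WT heme replicates 3, 4, 5 and 6, at 0.27 to 0.30. It was lost as well with the smooth muscle (0.20) or the epithelial marker level (0.25) as a covariate. A probe set shared by Acot9 and Acot10 was higher on heme by 0.44 in KO mice (adjusted p = 0.00709 from limma, called), and the value in WT mice was 0.37 (adjusted p = 0.0284, not called). The KO call was lost without any 1 of KO control replicates 1, 2, 4 and 6 and KO heme replicates 2 to 6, at 0.36 to 0.46. It was lost under 5 other settings too, among them the smooth muscle (0.41) and the epithelial marker level (0.34) as a covariate.

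**Figure D2:**
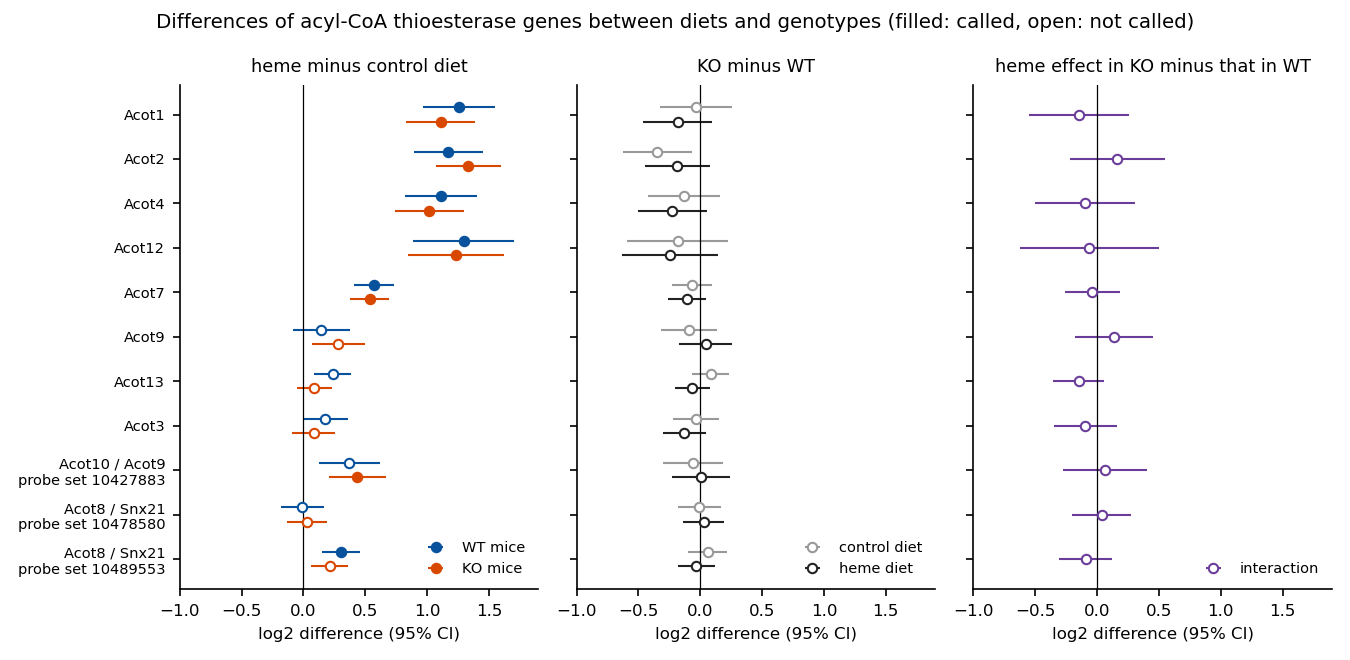
Log2 differences with 95% confidence intervals (horizontal axes) of the 8 genes and of 3 probe sets shared with another gene, for heme against control diet (left), KO against WT (middle) and the difference of the heme effects (right); filled points were called. At the left, Acot1, Acot2, Acot4 and Acot12 lie near or above 1 in both genotypes and Acot7 near 0.5, while all points in the middle and at the right are open.

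The comparison of KO with WT mice asks whether these levels or responses depended on the receptor. On the control diet 0 of the 8 genes were called by limma and 1 had an unadjusted p under 0.05, against 0.0531% and 5.74% of all genes. That gene was Acot2, with 474 ± 53.3 (SD, n = 6) in KO and 605 ± 94.0 (SD, n = 5) in WT control mice, a log2 difference of -0.35 (95% CI -0.63 to -0.07, adjusted p = 0.733 from limma). On the heme diet 0 of 8 were called and 0 had an unadjusted p under 0.05, against 0.234% and 12.2% of all genes. Of the 8 log2 differences 7 were below 0 on each diet, with a median of -0.08 on the control and -0.15 on the heme diet (0.00 and -0.01 over all genes). The order of the group means was thus KO control, WT control, KO heme and WT heme in Acot1, Acot2, Acot4, Acot7 and Acot12, where the steps between genotypes did not pass the test and those between diets did.

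For the heme response itself, the difference between KO and WT (interaction) was called in 0 of 8 genes by limma, and 0 had an unadjusted p under 0.05, against 0.0106% and 6.75% of all genes. On the log2 scale the response in KO minus that in WT mice was -0.15 for Acot1 (95% CI -0.55 to 0.26) and 0.16 for Acot2 (-0.22 to 0.55). It was -0.10 for Acot4 (-0.50 to 0.31), -0.06 for Acot12 (-0.63 to 0.50) and -0.04 for Acot7 (-0.26 to 0.19). These intervals leave room for a response that is smaller or larger in KO mice, and a missed threshold does not show equal responses. For Acot1, Acot2, Acot4 and Acot12 the lower bounds lay well short of the whole WT response, which was 1.11 to 1.29.

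KO heme replicate 1 was the lowest of its group in 7 of the 8 genes, all but Acot9. Its signal was 738 for Acot2, where the other 5 mice had 1178 to 1469, and 36.5 for Acot12, where they had 66.9 to 129. Without it the heme differences in KO mice were 1.22 for Acot1, 1.47 for Acot2, 1.15 for Acot4, 1.43 for Acot12 and 0.57 for Acot7 on the log2 scale, and the same 5 genes were called. The differences between KO and WT on the heme diet then were -0.07, -0.05, -0.09, -0.05 and -0.07 in the same order. This mouse also had the highest mean log2 level of the 11 leukocyte markers in its group (8.56 against 6.96 to 7.88) and of the smooth muscle markers (8.18 against 7.55 to 8.05), and the lowest of the epithelial markers (11.46 against 11.50 to 11.57). The part of these levels in its low values was not tested.

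Along chromosome 12 the type I genes stand in the order Acot2, Acot1, Acot4, Acot3, Acot5 and Acot6, with no other protein-coding gene of the RefSeq table within that stretch. The first 3 of this row rose on heme. Acot5, of peroxisomes, had a signal below 20 in every mouse and could not be called, with log2 differences of 0.05 in WT (95% CI -0.11 to 0.22) and 0.20 in KO mice (95% CI 0.04 to 0.36, adjusted p = 0.0520 from limma). Acot6, also a peroxisomal enzyme, went the other way, and its values were examined after the fall had been seen. Its signals were 129.6, 122, 96.0, 104 and 127 in WT control mice and 66.7, 73.1 and 83.3 (lowest, median and highest) in WT heme mice. In KO mice they were 84.1, 97.8 and 109 on the control and 62.2, 69.3 and 84.0 on the heme diet, where the highest heme-fed mouse lay just under the lowest control mouse. Acot6 fell by 0.64 on the log2 scale in WT (SE 0.0874, adjusted p = 1.15e-05 from limma) and by 0.45 in KO mice (SE 0.0834, adjusted p = 2.48e-04), while 8.29% and 9.20% of all genes were called lower and 6.91% and 6.62% lay lower without overlap. The direction held in all 12 heme-fed mice against the mean of the control mice of their genotype. The difference of its responses was 0.18 (95% CI -0.07 to 0.43) and was not called.

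**Figure D3:**
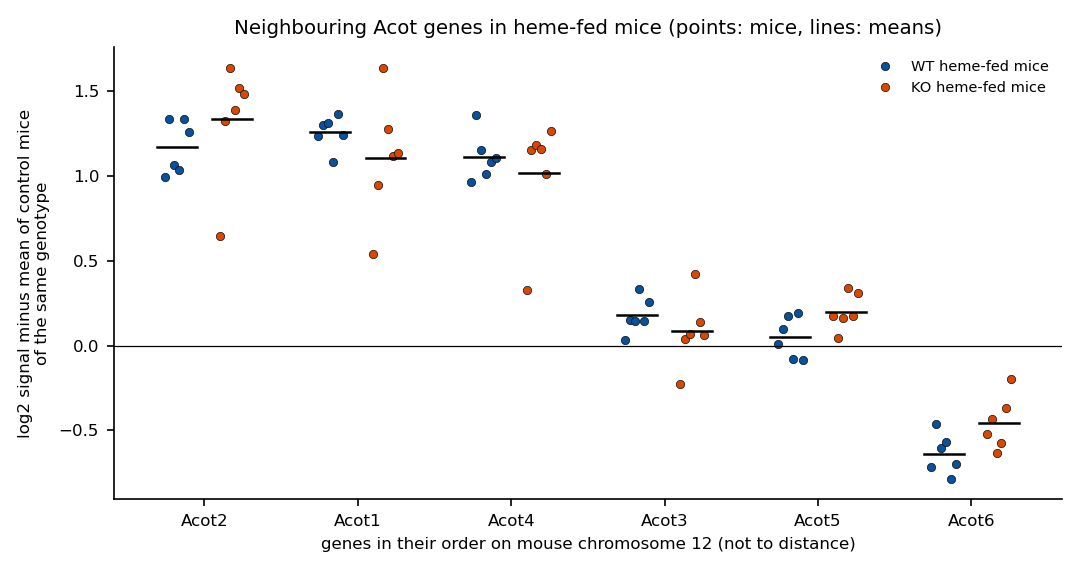
Log2 signal of each heme-fed mouse minus the mean of the control mice of its genotype (vertical axis) for the 6 type I genes in their order on chromosome 12 (horizontal axis, not to distance), with group means as lines. Acot2, Acot1 and Acot4 lie above 0 and Acot6 below 0 in every heme-fed mouse of both genotypes, with Acot3 and Acot5, whose signals were under 20, near 0.

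The members also varied together between mice of a group to differing degrees. After the group means were removed, the Pearson correlation over the 23 arrays in the 6 pairs of Acot1, Acot2, Acot4 and Acot12 ran from 0.44 between Acot1 and Acot4 to 0.77 between Acot1 and Acot2. Acot13, which was not called, had 0.71 with Acot4, 0.61 with Acot12, 0.61 with Acot2 and 0.43 with Acot1. Acot7, which was called, had 0.32 with Acot2 and -0.07 with Acot12. These values come from the same arrays, including the low KO heme mouse, and are a description. Acot1, Acot2 and Acot4 are close paralogs, and how far their probe sets read each other's transcripts is not known. Without removal of the group means, the genes most like Acot12 over the 23 arrays were the carnitine transporter Slc22a5 (r = 0.95), the peroxisomal membrane gene Pxmp4 (0.95), the peroxisomal and mitochondrial dienoyl-CoA isomerase Ech1 (0.95), the phosphoglucomutase Pgm1 (0.95) and the microtubule end-binding Mapre3 (0.95). These values span both diets and fell to 0.73 to 0.79 once group means were removed.

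Other enzymes of acyl-CoA turnover were less uniform. Of 8 further thioesterase genes measured, 2 were called higher and 1 lower on heme in WT mice, while 1 were called higher and 1 lower in KO mice. Beside Acot6 these were Them4, a mitochondrial thioesterase (log2 difference 0.40 in WT and 0.28 in KO), and, in WT mice, Hibch of valine breakdown (0.24, and 0.15 in KO mice, where adjusted p = 0.0831 from limma). Acot11, a cold-responsive thioesterase with a lipid-binding domain, was not called, at 0.08 and 0.07. Of 21 acyl-CoA synthetases, which make the substrate of the thioesterases, 7 were called higher and 2 lower on heme in WT mice, while 5 were called higher and 2 lower in KO mice, with a median log2 difference of 0.00 and 0.01. The 2 called lower in each genotype also lie near the shares over all genes. Slc27a2, a very long-chain synthetase, had log2 differences of 1.05 in WT and 0.57 in KO mice (adjusted p = 0.0671 in KO, and 0.834 for the difference of the responses, from limma). Acsl4, which prefers arachidonate, rose in both genotypes (0.63 and 0.50), as did Acsbg1 (0.59 and 0.54) and Slc27a4 (0.53 and 0.44).

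Of 6 acyl-CoA binding proteins only Dbi, which carries acyl-CoA in the cytosol, was called, with log2 differences of 0.43 in WT and 0.39 in KO mice. Of 11 genes of coenzyme A synthesis, transport and hydrolysis, 4 were called higher and 0 lower on heme in WT mice, while 2 were called higher and 1 lower in KO mice. Beside both lists stand the shares over all genes, 9.60% higher and 8.29% lower in WT and 9.23% and 9.20% in KO mice. Lists this short give counts of 1 or 2 that lie close to such shares. Ppcs, an early enzyme of coenzyme A synthesis, rose by 0.92 and 0.68, and the pantothenate kinase Pank3 by 0.33 and 0.40. Pank1, another pantothenate kinase, rose in WT mice (0.35) and was lower in KO than in WT mice on heme (-0.34, adjusted p = 1.10e-04 from limma), with 0.08 on heme in KO mice (adjusted p = 0.181) and an adjusted p = 0.264 for the difference of the responses. Slc25a42, the mitochondrial coenzyme A carrier, fell in KO mice (-0.38) and had -0.04 in WT mice (adjusted p = 0.717).

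Genes of fatty acid oxidation, which competes with the thioesterases for acyl-CoA, mostly moved the same way as the called members. Of 19 mitochondrial genes 11 were called higher in WT mice, 12 were in KO mice and none was lower, among them Cpt2, which returns acyl groups to coenzyme A in the matrix (0.77 and 0.87), the dehydrogenase Acadl (0.77 and 0.87), the carnitine carrier Slc25a20 (0.83 and 0.99) and Hadha of the trifunctional protein (0.59 and 0.63). Of 18 peroxisomal genes 10 were called higher in each genotype and none lower, with the oxidase Acox2 at 1.44 and 1.37 and the thiolase Acaa1b at 1.36 and 1.41, and the transporter Abcd3 at 0.63 and 0.66. The median log2 difference was 0.32 and 0.36 for the mitochondrial and 0.31 and 0.34 for the peroxisomal list in WT and KO mice. Over all genes it was -0.01 for either genotype. Heme raised 9.60% (WT) and 9.23% (KO) of all genes by a call, and lowered 8.29% (WT) and 9.20% (KO). Ehhadh, the bifunctional enzyme of peroxisomes, rose by 1.07 in WT and 0.55 in KO mice and was lower in KO than in WT mice on heme (-0.60, adjusted p = 0.00686 from limma), with an adjusted p = 0.505 for the difference of the responses.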

How the data were processed

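Expression in colon scrapings of 23 mice was deposited by the authors as log2 values per probe set, computed from Affymetrix Mouse Gene 1.1 ST arrays by Robust Multi-array Average (version not stated) and used as given. Linear signals are 2 raised to these values. The authors left out 1 WT control array for quality. The study names reorganised probe sets, whereas the table holds Affymetrix transcript clusters. Gene symbols came from the annotation of the platform and were brought up to date by Entrez number (RefSeq, GRCm38.p6), which matched 21185 of 21218 probe sets with 1 symbol. The brightest probe set stood for each of 18820 genes. Array medians lay between 5.80 and 5.90 (log2) and precision is bounded by how many arrays each group had.

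limma 3.58.1 (R 4.3.3) fitted the 4 groups in 1 model with moderated variances and Benjamini-Hochberg adjustment over all genes. The thresholds (adjusted p under 0.01, signal above 20) follow the study. The fit was tested on simulated data. Members, gene lists and tests were chosen with earlier results of these data known. All members, up to 4 called genes of each list and the 5 genes most like the member that changed most in WT mice were named. Alternatives were other limits, thresholds, scalings, variance models, weights, adjustments, marker covariates, probe set means, groups fitted, the replicate number as a block, and each array left out. Figures were drawn with matplotlib 3.10.9 (Python 3.11.15).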

Additional observations from a re-analysis of the deposited data

Results flagged for a closer look

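In the 6 KO heme mice, replicate 1 stood apart from the others in Acot2, with a linear signal of 738 against 1178 to 1469, and in Acot4, with 233 against 374 to 447. Its gap to the next mouse took up 0.68 and 0.73 of the range of the group on the log2 scale, which is above the 95% limit of Dixon's test. Of 56 sets of mice examined in this way (14 genes or probe sets in 4 groups) 2 were marked, while chance marks about 1 in 20. Both belong to the same mouse, and the heme differences without it are given above.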

How the results depend on the processing

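The 10 called heme effects (5 genes in 2 genotypes) were called in all 360 values from 13 other settings and from leaving out each of the 23 arrays, at 66.6% to 116% of their size, with a largest adjusted p = 0.00754 from limma (Acot12 in WT mice with the smooth muscle level as covariate). Some of these settings could not undo a call, namely no signal limit and an adjusted p under 0.05. Probe set means left the signals of these genes as they were, since each has a single probe set. An array of the other genotype enters only through the shared variance. The number of members called on heme ran from 5 to 6 in WT and stayed at 5 in KO mice with single arrays left out, and stayed at 0 in both comparisons of genotype and in the interaction. At an adjusted p under 0.05 it was 6 in each genotype, with Acot13 added in WT and Acot9 in KO mice. Acot6 was called lower in all 72 values. Of the probe sets shared with other genes, by contrast, 26 of 522 values lost a call and 4 gained one. Most of the 522 had no call to lose, since they belong to effects not called in the main fit. The WT call of probe set 10489553 was lost in 8 of 23 values with an array left out and in 4 of 12 other settings. The KO call of the probe set of Acot9 and Acot10 was lost in 9 of 23 and in 5 of 12. None of the 10 called effects changed sign. Of all 1427 values of the 8 genes 13 did, in 6 results that were not called (the interaction of Acot4, Acot7 and Acot12, and KO against WT for Acot1 and Acot3 on the control and Acot9 on the heme diet), where they lay between -0.02 and 0.13 on the log2 scale. Whether mice of equal replicate number were paired is not stated by the labels. Deviations from the group means correlated above 0.1 in 14 of 33 pairs of equal number (mean r = 0.05). They did so in 43 of 165 pairs of different number (mean r = -0.01). With the replicate block 5 members were called in WT and 5 in KO mice, and 0 in the other comparisons. Array signals have no depth, and Acot3 and Acot5 lay too near the background to show a change.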
